A study of Mus musculus with 2 samples.

Results

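The genes described here are 8 mouse microRNA (miRNA) genes known from leukocytes, microglia and inflammation: Mir142, Mir150, Mir155, Mir146, Mir146b, Mir223, Mir511 and Mir21a. They were named for their known roles, with no cutoff on their values, from 2202 miRNA genes counted in mouse cerebral cortex. Mir146 is the name that the GENCODE M21 annotation gives to the gene of miR-146a. The samples form 1 group, wild-type control cortex of strain B6NCrl, with 2 small RNA libraries numbered as biological replicates 1 and 2. The labels call the mice female in their free text, while their sex and age fields hold no value. They give no treatment and no genotype other than wild type, and they cite 1 donor record for both libraries. Separate animals are therefore not stated, and every difference between the libraries may be technical in part.

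miRNAs are short RNAs that load into Argonaute proteins and repress messenger RNAs, mainly by pairing through the seed, bases 2 to 8 from the 5′ end. In the innate immune system several of them are switched on by the transcription factor NF-kB downstream of Toll-like receptors. Among these, miR-155 strengthens the inflammatory response by repressing its inhibitors, and miR-146a damps it by repressing the adaptor proteins that carry the receptor signal. miR-142 is made throughout the blood lineage, miR-223 in granulocytes and other myeloid cells, and miR-150 in mature lymphocytes. Microglia, the resident macrophages of the brain, derive from that lineage. In bulk tissue, fewer cells of a type and less RNA per cell cannot be told apart, and the counts do not show which cells the reads came from.

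The mature sequences set which genes can be told apart by reads and which would repress the same targets, so those that bear on the counts are shown first. They are RefSeq entries on GRCm38.p6, written 5′ to 3′ with the seed in capitals. RefSeq entries were matched for all 8 genes, 14 mature forms in all. For Mir150 and Mir511 the 3p arm alone was matched, so miR-150-5p and miR-511-5p took no part in the seed search.
miR-146a-5p: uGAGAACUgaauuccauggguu
miR-146b-5p: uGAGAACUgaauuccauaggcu
miR-155-5p: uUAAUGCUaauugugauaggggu
miR-21a-5p: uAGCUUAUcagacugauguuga
miR-21c: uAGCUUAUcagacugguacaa
miR-150-3p: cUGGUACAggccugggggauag
miR-223-3p: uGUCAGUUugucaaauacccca
miR-511-3p: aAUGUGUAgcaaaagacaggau
miR-142a-3p: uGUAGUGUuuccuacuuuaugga
miR-142b: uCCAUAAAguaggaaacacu

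Among the 14 matched mature forms, miR-146a-5p and miR-146b-5p were the only pair with a shared seed. They are alike at 20 of 22 positions, and counted from 1 at the 5′ end of miR-146a-5p they differ by G18A and U21C. Their first 17 bases are the same, and the longest run that their hairpins share is 21 bases. A read has to reach those differing bases, or precursor sequence outside the shared run, to be placed at one of the genes, and reads placed at several loci enter no gene's count. miR-21a-5p shares its seed with miR-21c, whose gene had 0 counts in both libraries. The rest of the 14 matched forms shared a seed with no other entry among the 1738 mature sequences searched. miR-142b comes from the opposite strand of the Mir142 locus, and all of its 20 bases are complementary to miR-142a-3p.

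The genes lie at 8 separate loci (mm10, counted from 1). Mir146 is on chromosome 11 (43374397 to 43374461, minus strand), outside any other annotated gene. Mir146b is in an intron of Mfsd13a on chromosome 19 (46342762 to 46342870). Mir155 is in an exon of its noncoding host Mir155hg on chromosome 16 (84714140 to 84714204). Mir21a overlaps an exon of Vmp1, a gene for an autophagy protein, on chromosome 11 (86584067 to 86584158, minus strand). Mir150 is on chromosome 7 (45121757 to 45121821), outside any other annotated gene. Mir142 is in an intron of the noncoding gene Mir142hg on chromosome 11 (87756864 to 87756927), with Mir142b on the other strand (87756841 to 87756955). Mir223 is in an exon of the noncoding gene F630028O10Rik on chromosome X (96242817 to 96242926). Mir511 is in an intron of Mrc1, the gene of the macrophage mannose receptor, on chromosome 2 (14261003 to 14261081). All 6 host genes are transcribed from the same strand as the miRNA they hold.

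Replicate 1 had 4429633 sense counts in miRNA genes and replicate 2 had 6985784, so 1 read is worth 0.226 and 0.143 CPM (counts scaled to a library total of 1000000). Detection required each library to reach 2 CPM, which 438 of 2202 genes did (19.9%). Reads placed at several loci made up 43.9% and 47.9% of all reads. The libraries differed in markers of other tissue. The marker lists used here and below were chosen by known roles, but with earlier results of these data known. The 10 epithelial and sensory organ miRNAs listed summed to 29430 CPM in replicate 1, against 3885 CPM in replicate 2. The 5 choroid plexus and ependyma miRNAs summed to 1173 and 2471 CPM. The log2 ratio of replicate 2 over replicate 1 also moved with the GC content of the precursor. Its median was 0.45 in 88 detected genes under 45% GC, 0.08 in 169 genes from 45% to under 55%, and -0.36 in 181 genes at 55% or more.

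Of the 8 genes, 7 were detected and Mir511 was not. Together they held 0.148% of the counts of replicate 1 (6568 counts) and 0.245% of those of replicate 2 (17083 counts), a mean of 0.196% ± 0.0681 (SD, n = 2). The means ran from 1022 CPM for Mir150 down to 0.184 CPM for Mir511. Mir150, Mir146 and Mir21a had means of 100 CPM or more, as did 8.99% of all genes. These 3 genes and Mir155 made up nearly all of the sum. In replicate 1 the shares of the sum were 56.5% for Mir150, 30.3% for Mir146, 8.98% for Mir21a and 3.20% for Mir155. In replicate 2 they were 49.3%, 27.0%, 20.3% and 2.72%. The order of the 4 was the same in both libraries.

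**Figure D1:**
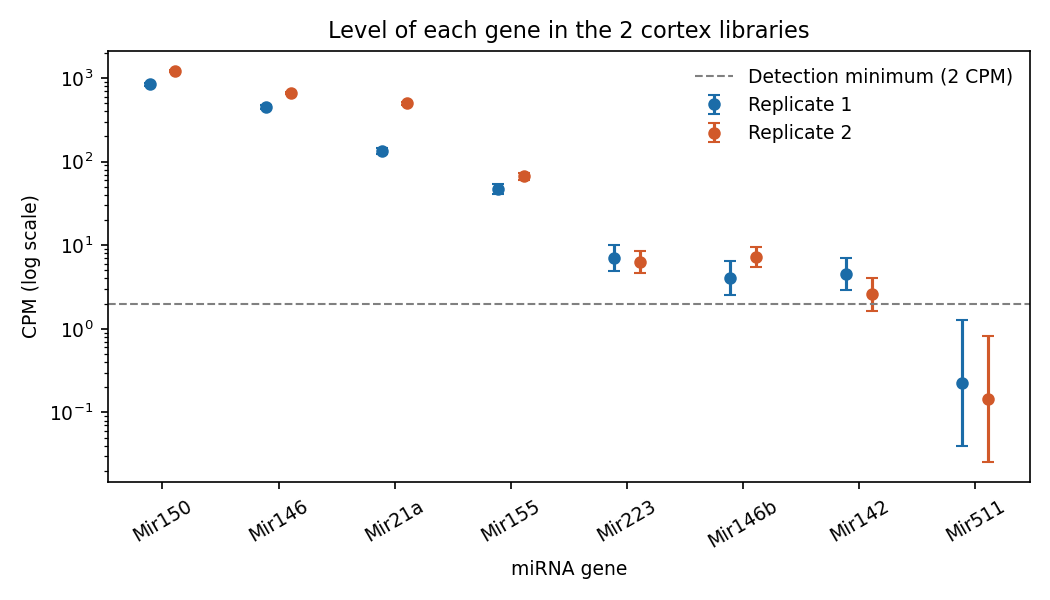
Level in CPM (log axis) of each of the 8 genes in replicate 1 and replicate 2, with bars for the 95% Wilson interval of the counts and a dashed line at the detection minimum of 2 CPM. Mir150, Mir146, Mir21a and Mir155 lie above 40 CPM in both libraries, Mir223, Mir146b and Mir142 lie between 2.58 and 7.30 CPM, and Mir511 lies below the minimum.

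Mir150, whose product represses the transcription factor Myb in lymphocytes, was the most abundant of the 8. It was counted 3709 times in replicate 1 and 8429 times in replicate 2, which is 837 CPM (95% Wilson interval 811 to 865) and 1207 CPM (1181 to 1233). Its mean of 1022 ± 261 CPM (SD, n = 2) ranked 96th of 2202 genes, between Mir1843b at 1029 CPM and Mir668 at 1006 CPM. Both of its values lay above every value of the other 7 genes.

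Mir146, the gene of the NF-kB-induced brake miR-146a, came next. It had 1989 and 4613 counts, or 449 CPM (430 to 469) and 660 CPM (642 to 680) in that order. The mean was 555 ± 149 CPM (SD, n = 2), rank 121, between Mir1298 at 565 CPM and Mir673 at 546 CPM. Its relative Mir146b, with the same seed, had 18 and 51 counts, or 4.06 CPM (2.57 to 6.42) and 7.30 CPM (5.55 to 9.60). Mir146b thus had 0.905% of the counts of Mir146 in replicate 1 (exact 95% interval 0.535 to 1.43) and 1.11% in replicate 2 (0.822 to 1.46). These intervals overlap, and in both libraries nearly all counts of the 2 genes were placed at Mir146. The counts are per gene and do not separate the 5p arm, which holds the shared seed, from the 3p arm. At a mean of 5.68 ± 2.29 CPM (SD, n = 2), Mir146b ranked 359th, between Mir5121 at 5.87 CPM and Mir6959 at 5.65 CPM.

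Mir155, the gene of the pro-inflammatory miR-155, was lower than Mir146 by about an order of magnitude. Counts were 210 in replicate 1 and 464 in replicate 2, or 47.4 CPM (41.4 to 54.3) and 66.4 CPM (60.6 to 72.7). The mean was 56.9 ± 13.4 CPM (SD, n = 2), rank 222, between Mir345 at 57.1 CPM and Mir669o at 54.2 CPM. Mir155 had 10.6% of the counts of Mir146 in replicate 1 (exact 95% interval 9.11 to 12.2) and 10.1% in replicate 2 (9.12 to 11.1).

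Mir21a, the gene of miR-21, which is widely expressed and rises in injured and inflamed tissue, was the one whose level differed most between the libraries. Counts were 590 in replicate 1 and 3463 in replicate 2, or 133 CPM (123 to 144) and 496 CPM (479 to 513). The mean of 314 CPM (rank 151, between Mir3099 at 323 CPM and Mir672 at 308 CPM) had an SD of 256 over n = 2. It ranked 190th in replicate 1 and 123rd in replicate 2. In replicate 2 its level exceeded that of Mir146 in replicate 1, so the ranges of these genes overlap although Mir146 was higher within each library.

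Mir142, the gene of the whole blood lineage, and Mir223, the gene of its myeloid cells, were both near the detection minimum. Mir223 had 31 and 44 counts, or 7.0 CPM (4.93 to 9.93) and 6.30 CPM (4.69 to 8.45). Its mean was 6.65 ± 0.495 CPM (SD, n = 2), rank 348, between Mir592 at 6.83 CPM and Mir5620 at 6.51 CPM. Mir142 had 20 and 18 counts, or 4.52 CPM (2.92 to 6.97) and 2.58 CPM (1.63 to 4.07). Its mean was 3.55 ± 1.37 CPM (SD, n = 2), rank 402, between Mir7013 at 3.55 CPM and Mir5131 at 3.50 CPM. Mir142 had 0.539% of the counts of Mir150 in replicate 1 (exact 95% interval 0.329 to 0.834) and 0.214% in replicate 2 (0.127 to 0.338). By counts, the profile of the 8 genes was therefore not led by the pan-leukocyte gene, and the counts alone do not assign it to leukocytes or microglia. Whether the libraries capture different miRNAs equally well was not tested.

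The strand of the reads decides whether Mir142 is seen at all. Its hairpin lies inside that of Mir142b on the other strand, and in the either-strand column Mir142 had 0 counts in both libraries. In the sense column Mir142b had 0 counts, and its opposite-strand counts were 20 and 18, the sense counts of Mir142. The reads at this locus thus ran in the direction of Mir142.

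Mir511, which is made from the macrophage gene Mrc1, had 1 count in each library (0.226 and 0.143 CPM). Both lie under the limit that a count of 0 allows, 3 counts, or 0.677 and 0.429 CPM. It was 1 of 10 genes tied at that mean, so no neighbours are named and no ratio is given.

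**Figure D2:**
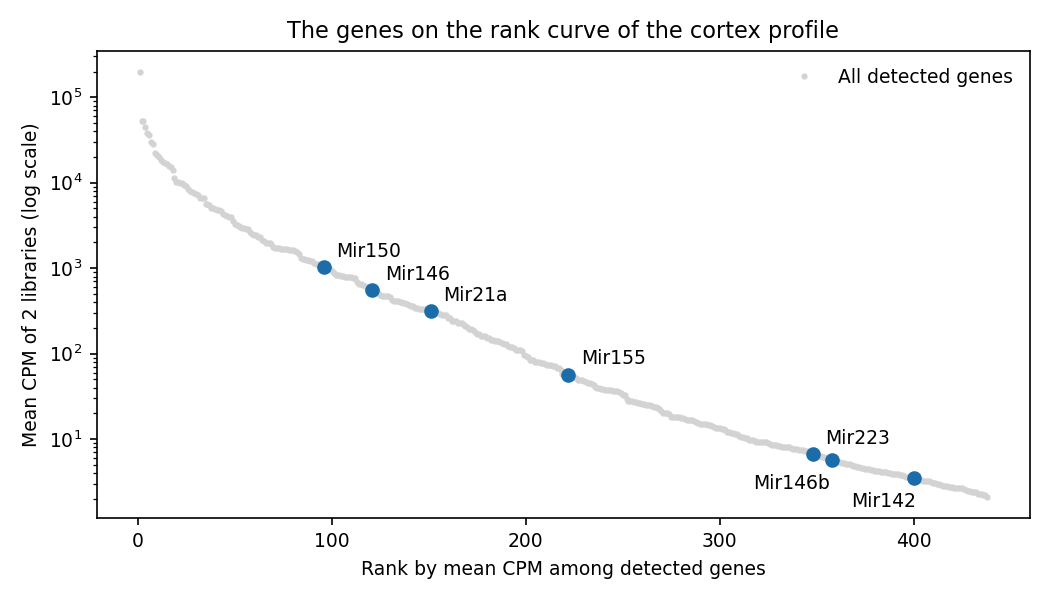
Mean CPM of 2 libraries (log axis) against rank for the 438 detected genes (grey), with the 7 detected genes of the set in blue. Mir150, Mir146 and Mir21a lie in the upper part of the curve at 1022, 555 and 314 CPM, Mir155 near its middle at 56.9 CPM, and Mir223, Mir146b and Mir142 in its tail at 6.65 CPM or less.

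In the order of the means (Mir150, Mir146, Mir21a, Mir155, Mir223, Mir146b, Mir142, Mir511), 3 of the 7 neighbouring pairs overlapped between libraries. They were Mir146 with Mir21a, Mir223 with Mir146b, and Mir146b with Mir142. Mir223 was above Mir146b in replicate 1 and below it in replicate 2. Mir142 was above Mir146b in replicate 1, at 4.52 against 4.06 CPM, and below it in replicate 2. The remaining 4 pairs did not overlap. These are Mir150 with Mir146, Mir21a with Mir155, Mir155 with Mir223, and Mir142 with Mir511.

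The libraries were compared next, gene by gene, to see how far each level holds. An exact two-sided binomial test was run on the counts of all 438 detected genes with Benjamini-Hochberg adjustment. It sets counting error against the difference between these 2 libraries, not between conditions. A call needed an adjusted p below 0.05 together with a ratio of 2 or more in either direction. Mir21a alone of the 7 detected genes was called, toward replicate 2, where 18.0% of all detected genes were called, 9.36% toward replicate 2 and 8.68% toward replicate 1. At any ratio, 5 of the 7 passed the adjusted p, against 63.9% of all detected genes. All 5 were higher in replicate 2 (Mir150, Mir146, Mir21a, Mir155 and Mir146b), a direction in which 32.0% of all detected genes passed. Without a test, those same 5 of 7 had a log2 ratio above 0, as did 47.7% of detected genes. The median log2 ratio was 0.65 over the 7 genes and -0.03 over all detected genes.

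**Figure D3:**
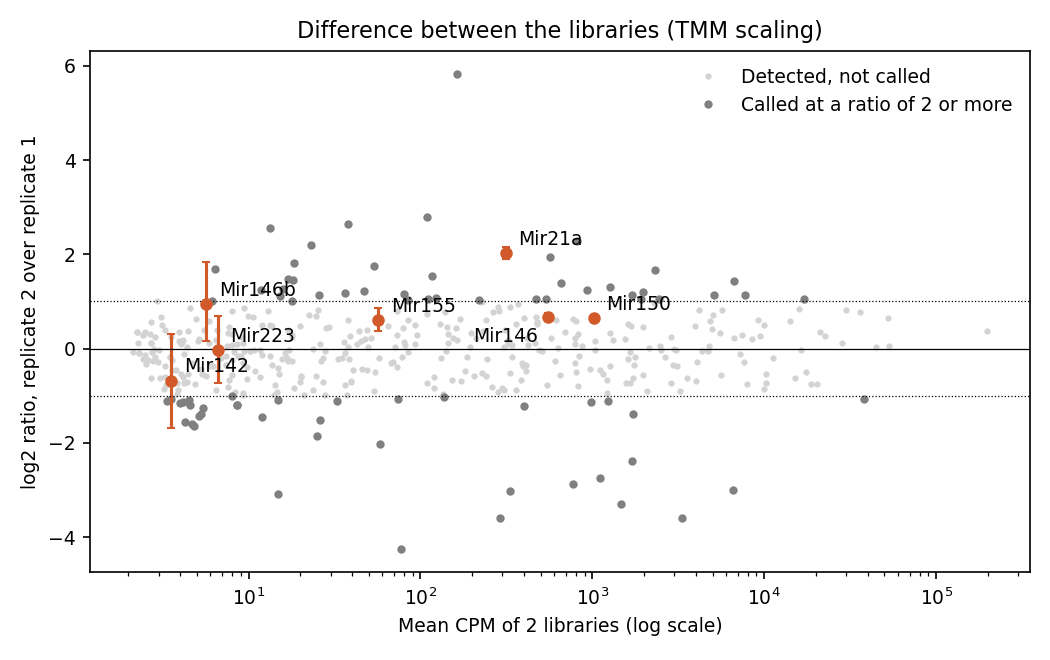
Log2 ratio of replicate 2 over replicate 1 (TMM scaling) against mean CPM (log axis) for 438 detected genes, in dark grey where called at a ratio of at least 2 (dotted lines at 1 and -1), with the 7 detected genes of the set in orange and their exact 95% counting intervals. Mir21a lies at 2.02, Mir150, Mir146 and Mir155 lie between 0.61 and 0.68, and the intervals of Mir146b, Mir223 and Mir142 are wide.

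Mir21a was 4.06-fold higher in replicate 2, which is 2.02 on the log2 scale (exact 95% interval 1.89 to 2.15, adjusted p = 9.67e-291 by the exact binomial test). That was the 7th largest ratio toward replicate 2 among the 438 genes. Of 62 other detected genes with a mean between 0.5 and 2 times that of Mir21a, 8 were called (12.9%), and their log2 ratios ran from -3.60 to 5.82 with a median of 0.10. The choroid plexus and ependyma list was higher in replicate 2 as well, with 4 of its 5 genes called higher in replicate 2 and a median log2 ratio of 1.13. The endothelial and mural list had 0 of 3 genes called and summed to 4286 and 5428 CPM. Its genes were not alike, with log2 ratios of 0.97 for Mir126a, just short of a call, 0.02 for Mir143 and 0.08 for Mir145a. The red blood cell list summed to 13.3 and 20.3 CPM. In that list Mir451a had 8 and 75 counts, and Mir144 had 3 and 0, both short of detection. Its only detected gene, Mir486, had 48 and 67 counts and a log2 ratio of -0.055, and was not called. The neuron list had 0 of 6 detected genes called, and the oligodendrocyte list 0 of 3. The rest of the neuron list, Mir124a-1, Mir124a-2 and Mir124a-3, was not detected and so was not compared. The epithelial and sensory list lay on the other side, with 10 of 10 genes called higher in replicate 1 and a median of -3.0. Beside these counts, 18.0% of all detected genes were called, 9.36% toward replicate 2 and 8.68% toward replicate 1. The part of these other tissues in the difference of Mir21a was not tested.

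Mir150, Mir146 and Mir155 were higher in replicate 2 by nearly equal factors. The log2 ratio was 0.65 for Mir150 (0.60 to 0.71, adjusted p = 7.38e-122 by the exact binomial test), which is 1.57-fold. It was 0.68 for Mir146 (0.61 to 0.76, adjusted p = 1.46e-72, exact binomial test), or 1.60-fold, and 0.61 for Mir155 (0.37 to 0.85, adjusted p = 4.83e-07, exact binomial test), or 1.53-fold. All 3 were short of a ratio of 2.

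Mir146b had a log2 ratio of 0.95 (0.17 to 1.83, adjusted p = 0.0224 by the exact binomial test). The adjusted p with library totals in place of TMM was 0.0537 (log2 ratio 0.82). Mir223 was at -0.03 (-0.72 to 0.69, adjusted p = 1, exact binomial test) and Mir142 at -0.68 (-1.69 to 0.31, adjusted p = 0.25, exact binomial test). At 18 to 51 counts per library these intervals leave room for differences of 1.5-fold or more. Before any GC correction no difference was detected for Mir223 and Mir142, and one of that size was not excluded.

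At a lower limit of 1.5-fold, the same 5 genes were called higher in replicate 2 (Mir150, Mir146, Mir21a, Mir155 and Mir146b), against 18.3% of all detected genes. That count rests on the scaling. With library totals, which move the median log2 ratio of all detected genes from -0.03 to -0.16, it was 1 gene, Mir21a, against 13.7% of all detected genes. With the GC trend removed the count was 3 (Mir150, Mir146b and Mir21a), against 15.1%. Relative to the median of all detected genes, the log2 ratio was 0.69 for Mir150, 0.72 for Mir146, 0.64 for Mir155 and 2.06 for Mir21a. It was 0.98 for Mir146b, 0.001 for Mir223 and -0.65 for Mir142. By construction no choice of library scaling can move this measure, though a GC correction can.

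Ratios between genes inside one library do not depend on how the libraries are scaled. Mir146 had 53.6% of the counts of Mir150 in replicate 1 (exact 95% interval 50.8 to 56.6) and 54.7% in replicate 2 (52.8 to 56.7). Mir155 had 5.66% of the counts of Mir150 in replicate 1 (4.90 to 6.51) and 5.50% in replicate 2 (5.00 to 6.04). The proportions of these 3 genes thus differed by no more than counting error.

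The proportion of Mir21a to them differed. It had 15.9% of the counts of Mir150 in replicate 1 (14.6 to 17.4) and 41.1% in replicate 2 (39.5 to 42.7), and 29.7% and 75.1% of the counts of Mir146. Mir155 had 35.6% of the counts of Mir21a in replicate 1 but 13.4% in replicate 2. Over the 28 pairs of the 8 genes, the intervals of the libraries were apart in 5. Each of those 5 pairs held Mir21a, with Mir150, Mir146, Mir155, Mir223 or Mir142 as the partner. The pairs of Mir21a with Mir146b and Mir511 overlapped, at few counts. Pairs that share a gene are not independent, and pairs with genes at few counts have wide intervals. The same count over pairs of all detected genes was not made, so the count here has no background beside it.

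**Figure D4:**
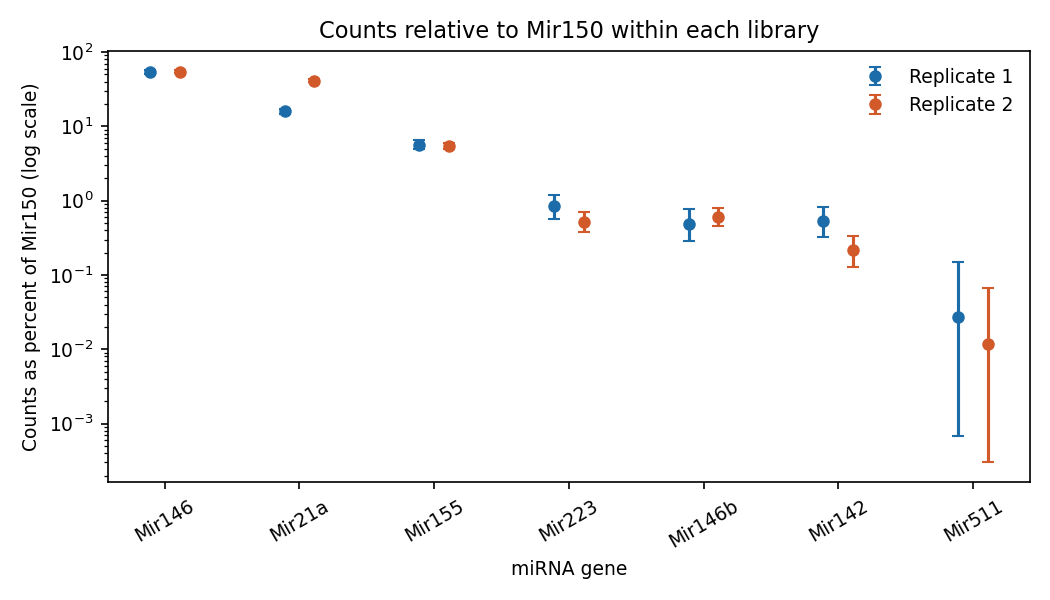
Counts of each of the other 7 genes as a percentage of the counts of Mir150 in the same library (log axis), with exact 95% counting intervals, in replicate 1 and replicate 2. Mir146 (53.6% and 54.7%) and Mir155 (5.66% and 5.50%) overlap between the libraries, while Mir21a stands at 15.9% and 41.1%.

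The precursors differ in GC content, at 63.1% for Mir150, 40.0% for Mir146, 43.1% for Mir155, 45.7% for Mir21a, 42.2% for Mir142, 50.0% for Mir223 and 55% for Mir146b. Removing the GC trend of all detected genes set Mir150 at a log2 ratio of 1.02, Mir146 at 0.26 and Mir155 at 0.26. The equal proportions of Mir150 to Mir146 and Mir155 therefore hold for the counts as deposited and not for values corrected in this way. With that correction Mir150, Mir146b (1.03) and Mir142 (-1.05) passed the limit of a call beside Mir21a, which stood at 1.76. Of all detected genes, 13.2% then passed in either direction.

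**Figure D5:**
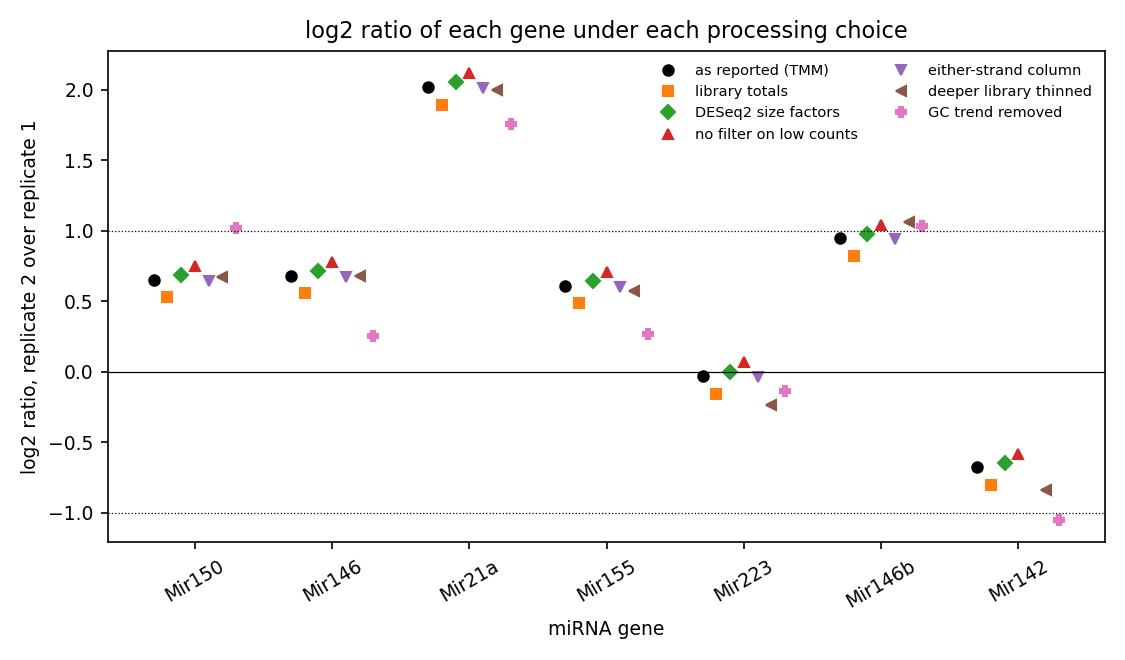
Log2 ratio of replicate 2 over replicate 1 for the 7 detected genes under each processing choice (symbols), with dotted lines at the limits of a call (1 and -1). Mir21a lies between 1.76 and 2.12 under every choice shown, Mir150 reaches 1.02 only with the GC trend removed, and Mir142 has no value in the either-strand column.

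For context, 15 other miRNA genes with known roles in immune cells or inflammation were read from a list chosen in the same way as the marker lists. All 15 were detected, and they summed to 8.30% of the counts in replicate 1 and 10.2% in replicate 2. Of all 2202 genes, 19.9% were detected and 1415 had no count in either library. Since the list was chosen with earlier results of these data known, its detection is a description only. The 3 highest were Mir132, which is also induced by neuronal activity, at 52078 ± 13446 CPM, Mir125a at 16452 ± 1316 CPM and Mir221 at 8516 ± 364 CPM (SD, n = 2). Of these 15 genes, 2 were called higher in replicate 2, Mir31 with a log2 ratio of 1.21 and Mir181a-1 with 1.02, and 0 higher in replicate 1. The median log2 ratio of the list was 0.23. Its numbered copies, Mir181a-1 among them, lack reads placed at several loci. Mir147, induced in macrophages by Toll-like receptors, had 11 and 26 counts (2.48 and 3.72 CPM), close to the level of Mir142.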

How the data were processed

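Small RNA (size limit under 30, per the labels) from mouse cerebral cortex was sequenced in 2 libraries of 1 group. The authors deposited 1 table per library with raw read counts per miRNA gene in 3 columns (either strand, sense, opposite strand), on mm10 with annotation M21 per the deposited readme text. Adapter trimming is cited in the labels with a different document for each library, so trimming and replicate cannot be told apart. Which aligner and counter were used is not given in the sources used here. The 4 summary lines naming no gene (64.6% of the reads of replicate 1 and 61.8% of those of replicate 2) were left out.

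Counts of the sense column, the stranded column with the larger total, were scaled to CPM over all gene lines. All 2202 gene identifiers matched GENCODE M21. Ratios used edgeR 4.0.16 TMM sizes, 0.5 added counts and exact 95% intervals. The exact binomial test (scipy 1.17.1) was adjusted over the 438 detected genes. It was checked on simulated counts that held counting error only, so that check does not cover other differences between the libraries. Intervals and the floor of 3 counts cover counting error only, since the tables carry no molecular identifiers. Alternatives were library totals, DESeq2 1.42.0 size factors, no filter, the either-strand column, a thinned library, a lowess GC correction, and other limits and denominators. The genes named are the 8 genes, genes sharing a seed or overlapping them, hosts, neighbours in level, and leading genes of the lists. The 8 genes and all marker lists were chosen by known roles, but with earlier results of these data known.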

Additional observations from a re-analysis of the deposited data

Results flagged for a closer look

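Opposite-strand reads, which enter the values above only with the either-strand column and in the Mir142b counts, were found at Mir21a. It had 12 such counts in replicate 2, above the limit of 3 counts that a count of 0 allows, beside 3463 sense counts. In replicate 1 it had 3 opposite-strand counts beside 590 sense counts, at that limit. The other 7 genes had 0 or 1 opposite-strand counts in either library.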

How the results depend on the processing

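No paired analysis was possible because the samples form 1 group. The number of the 8 genes called between the libraries was 1 as reported (18.0% of all detected genes). It was also 1 with library totals (19.2%), DESeq2 size factors (17.8%) or the either-strand column (17.1%), where 6 of the genes were tested. It was 2 with no filter on low counts (11.4% of all genes tested) and 2 with the deeper library thinned (17.0%), with Mir146b added at 1.04 and 1.07, 4 with the GC trend removed (13.2% of all detected genes), and 5 at a ratio limit of 1.5 (39.0%, either direction). At that limit the count was 1 with library totals and 3 with the GC trend removed, alternatives chosen after seeing the data. Detection fell from 7 genes to 4 at a minimum of 10 CPM. The summed share was 0.073% with all reads in the denominator, and 0.148% to 0.245% leaving out each replicate. Mir223 changed sign, to 0.065, with no filter on low counts. The causes were not tested. Depth limits Mir223, Mir146b, Mir142 and Mir511, at 51 counts or fewer per library.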
